A study of Mus musculus with 10 samples.

Results

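The 10 genes described here are the liver X receptor (LXR) genes Nr1h3 and Nr1h2 and 8 genes of sterol efflux and lipid remodelling: Abcg5, Abcg8, Abca1, Abcg1, Scarb1, Pltp, Mylip and Lpcat3. They were taken by symbol from a normalised expression table of 24062 mouse genes, and all 10 were found and passed the filter on low values. Messenger RNA was sequenced from 2 hepatocellular carcinomas and 8 pooled livers. Each tumour came from a single mouse on a Western diet that had received the hepatotoxin carbon tetrachloride (CCl4) for 24 weeks. Each liver library pooled 4 mice, and there was 1 pool at 12 weeks and 1 at 24 weeks for Western diet with CCl4, normal diet with CCl4, Western diet with oil (the vehicle) and normal diet with oil. No combination of diet, treatment and duration had a second pool, so the pools of 12 and 24 weeks served as the repeats, 2 against 2, after a shift shared by all combinations was removed. P-values therefore measure the spread between these pools and not between animals. The strain, sex and age of the mice and the dose of CCl4 are not in the labels. In whole tissue fewer cells of a type and less RNA per cell cannot be told apart.

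LXRs are nuclear receptors that bind oxysterols, oxidised forms of cholesterol, and act on DNA as heterodimers with retinoid X receptors (RXR). When a cell holds excess sterol they switch on genes that export cholesterol, that reduce its uptake and that make fatty acids. In the liver, Abcg5 and Abcg8 pair to move sterols into bile, and Abca1 starts the formation of high-density lipoprotein (HDL).

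Promoter sequence was read from RefSeq windows of GRCm38.p6, which run from 250 bases before to 50 bases after a gene's start and were matched for 8 of the 10 genes, in 10 windows (all but Scarb1 and Abcg1). LXR-RXR binds 2 direct repeats of a hexamer spaced by 4 bases, the DR4 arrangement. It was searched on both strands as GGTNA followed, after any 5 letters, by GGTNA, and was found in 1 of these 10 windows, that of Abca1, and in 0.718% of all 32851 windows. A single hexamer AGGTCA, searched on both strands, was found in 0 of the 10, and in 16.3% of all windows; it can overlap a DR4 match. No match says only that the letters are absent from these windows. The Abca1 sequence upstream of the start (chr4:53159896-53160145, minus strand, written 5′ to 3′) is shown because it holds the match, in capitals, 67 to 53 bases before the start. On the other strand the same 15 bases read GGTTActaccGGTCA (chr4:53159948-53159962), with the 2 repeats in capitals. Abcg5 and Abcg8 are transcribed in opposite directions, and RefSeq gives Abcg8 2 start windows. The 109 bases between the Abcg5 start and the Abcg8 start at 84683121 (chr17:84683012-84683120, plus strand) are shown because the pair moved together in the data. The other Abcg8 start, at 84676302, is also the start of the gene in GENCODE and lies inside Abcg5.
Abca1 upstream: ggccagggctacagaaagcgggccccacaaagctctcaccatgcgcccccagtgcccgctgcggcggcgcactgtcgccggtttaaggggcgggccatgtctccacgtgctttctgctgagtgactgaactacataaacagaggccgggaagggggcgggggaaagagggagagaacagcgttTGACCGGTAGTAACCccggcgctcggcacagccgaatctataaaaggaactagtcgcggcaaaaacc
Abcg5 to Abcg8: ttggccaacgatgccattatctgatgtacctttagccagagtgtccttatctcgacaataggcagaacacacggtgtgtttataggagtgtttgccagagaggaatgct

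Read depth was 23206229 to 30137802 reads per library. Levels are given as normalised read counts, and differences between groups on the scale of log2(value + 1), with the standard error of the fit. A gene was called when its limma adjusted p was under 0.05 over all 12648 tested genes. Overlap between 2 libraries and 2 is given as a description, as the share of all tested genes without overlap was not counted. The liver label was checked by 8 hepatocyte markers, which summed to 102614 and 288471 in the 2 tumours and to between 88961 and 165482 in the pools. Alb, the albumin gene, made up 66122 and 203789 of the tumour sums. Cps1, an enzyme of the urea cycle, was below every pool in both tumours, at 1202 and 1864 in tumours against 2462 to 5697 in the pools. Between tumours and the livers of Western diet with CCl4, 5 of the 8 markers had a positive difference, and the median was 0.22. Limma called 0 of the 8 there, with 1 unadjusted p under 0.05, and edgeR called 0 and DESeq2 1, which was lower. Other cell types moved with the groups. All 12 macrophage markers were above 0 in each library, and their sum was 1229 and 1314 for Western diet with CCl4, 775 and 1235 for normal diet with CCl4, at 12 and 24 weeks. In the oil pools it was 574 and 684 for the Western diet, against 291 and 401 for the normal diet. All 12 rose with CCl4 on a normal diet, and 6 of 7 stellate and fibroblast markers, 4 of 6 endothelial markers and 1 of 4 bile duct markers rose as well. Among all tested genes 15.3% rose and 10.6% fell. Of the 8 hepatocyte markers, 2 fell in limma and 5 by edgeR and by DESeq2. Of 5 Kupffer cell markers, 0 were called in limma (1 had an unadjusted p under 0.05, and edgeR and DESeq2 called 0). With 1 library left out, 10 to 12 macrophage, 5 to 7 stellate and fibroblast, 1 to 4 endothelial, 0 to 3 bile duct and 0 to 2 Kupffer cell markers rose and 0 to 4 hepatocyte markers fell. The part of these shifts in the results below was not tested.

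**Figure D1:**
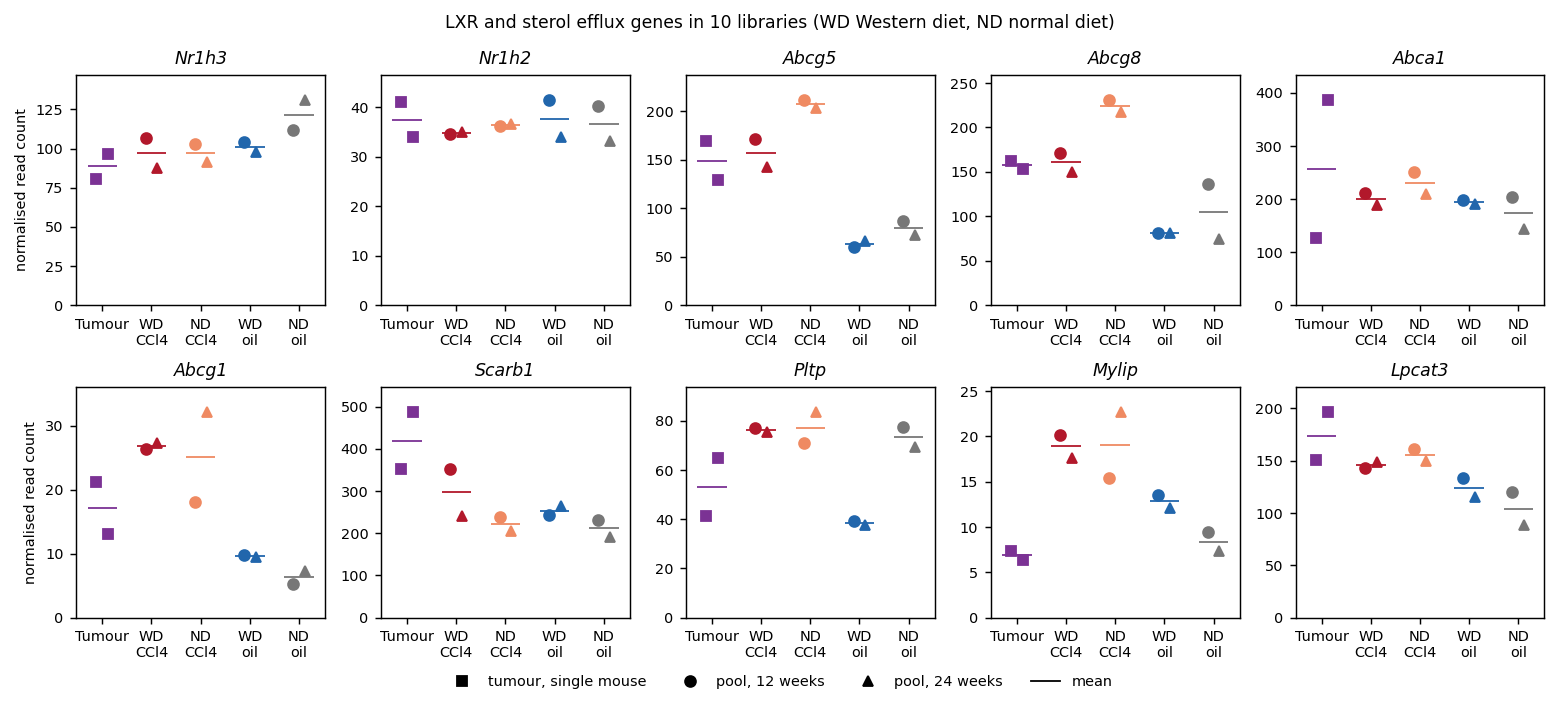
Normalised read counts of the 10 genes (y axis, linear from 0) in each library, by group; squares are tumours, circles are pools of 12 weeks, triangles are pools of 24 weeks, and lines are group means. Abcg5 and Abcg8 are higher in both CCl4 groups than in both oil groups, Pltp is low in Western diet with oil, and the 2 tumours differ widely in Abca1 (126 and 386).

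Per kilobase of exon, and averaged over the 8 pools, Abcg5 stood highest of the 10 at 46.7 normalised reads per kb. Nr1h3 followed at 41.4 and Lpcat3 at 40.5. Abcg8 had 38.1, Scarb1 29.0, Pltp 25.9 and Abca1 19.3. The lowest were Nr1h2 at 10.8, Mylip at 4.57 and Abcg1 at 2.33. Neighbours in this order overlapped in their pools, as Abcg5 alone ran between 22.2 and 77.9 per kb, except that all Nr1h2 values lay below those of Abca1 and above those of Mylip. The lowest read count of the 10 genes in any pool was Abcg1's, at 119, and its highest was 1080. In GENCODE for GRCm38, Abca1 spans 53030787 to 53159895 of chromosome 4, Abcg1 31057675 to 31117988 of chromosome 17, and Mylip 45389742 to 45412022 of chromosome 13. On chromosome 2 lie Nr1h3 (91184061 to 91202834) and Pltp (164839518 to 164857711). Nr1h2 spans 44549616 to 44553951 of chromosome 7, Lpcat3 124663027 to 124704418 of chromosome 6, and Scarb1 125277087 to 125341094 of chromosome 5.

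The first comparison set normal diet with CCl4 against normal diet with oil, the toxin without the diet. The biliary transporter pair Abcg5 and Abcg8, the macrophage and tissue exporter Abcg1, the receptor-degrading ligase Mylip, the phospholipid-remodelling enzyme Lpcat3 and the HDL exporter Abca1 rose. Thus 6 of 10 genes rose and 0 fell, where 15.3% of all tested genes rose and 10.6% fell. The median change of the 10 was 0.50, against 0.00 for all tested genes. Both receptors and the lipoprotein genes Scarb1 and Pltp did not pass the test.

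Abcg5, which encodes the obligate partner of Abcg8 in the sterol transporter, had values of 211 and 203 with CCl4, against 86.7 and 72.3 with oil. Abcg8 had 231 and 218 with CCl4, against 137 and 74.1 with oil. For both genes the 2 CCl4 pools lay above the 2 oil pools with no overlap. The ratio of means was 2.60 for Abcg5 and 2.13 for Abcg8. By limma, Abcg5 rose by 1.38 ± 0.13 (SE, adjusted p = 0.000338) and Abcg8 by 1.15 ± 0.19 (adjusted p = 0.00423). The 12-week pool of normal diet with oil held more Abcg8 than Abcg5 per kb (ratio 0.877), whereas in the other 7 pools Abcg5 was the higher, by 1.02 to 1.38 times. The 2 genes sit on opposite strands of chromosome 17 (Abcg5 at 84658234 to 84683011, Abcg8 at 84676302 to 84700333) and share 82 exon bases, so a few reads could be counted for either one if strand was not used.

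Abcg1, which loads cholesterol onto HDL and is prominent in macrophages, gave the largest change of the 10. Its values were 18.1 and 32.1 with CCl4, against 5.28 and 7.32 with oil, from 456 and 1080 reads against 119 and 160. The groups did not overlap, and the rise was 1.80 ± 0.20 (limma adjusted p = 0.000771). The macrophage sum moved in the same direction, 775 and 1235 with CCl4 against 291 and 401 with oil, and the pool with the most Abcg1 in this comparison also had the most macrophage signal. Mylip, a ubiquitin ligase that sends lipoprotein receptors to degradation, had 15.4 and 22.6 with CCl4, against 9.41 and 7.32 with oil. It rose by 1.08 ± 0.21 (limma adjusted p = 0.00709), and the 24-week CCl4 pool was the highest. The part of the macrophage shift in either gene was not tested.

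**Figure D2:**
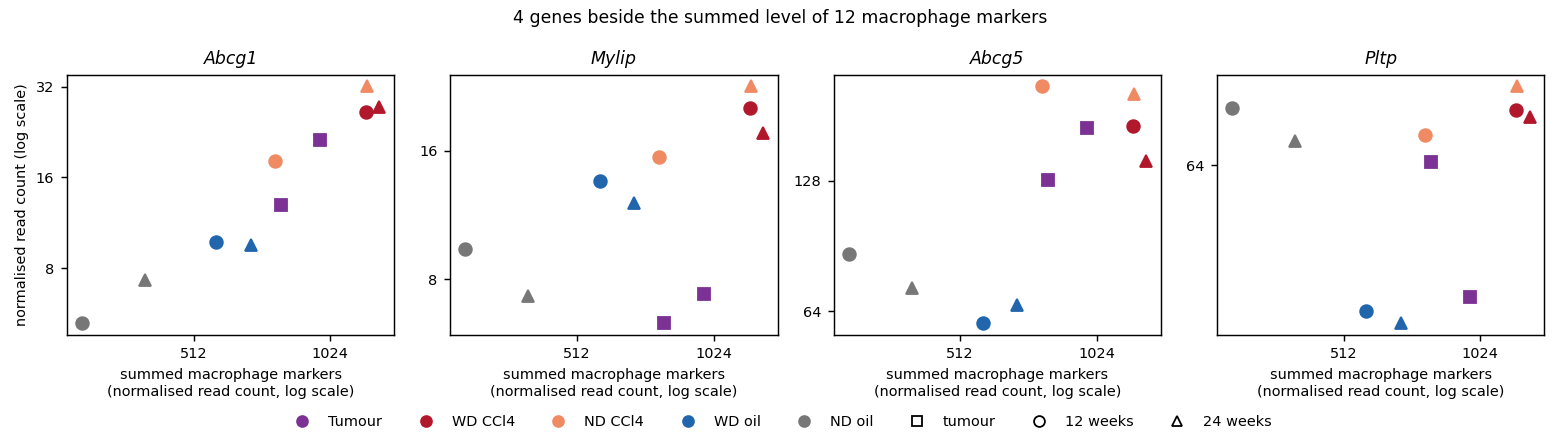
Normalised read counts of Abcg1, Mylip, Abcg5 and Pltp (y axes, log scale) against the summed normalised read count of 12 macrophage markers (x axis, log scale), 1 point per library. Abcg1 and the marker sum are both lowest in the 2 pools of normal diet with oil (marker sums 291 and 401), while Mylip in the 2 tumours (7.39 and 6.33) lies far below pools with a like marker sum.

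Lpcat3 adds polyunsaturated chains to membrane phospholipids. It had 161 and 149 with CCl4, against 120 and 88.3 with oil, and rose by 0.59 ± 0.13 (limma adjusted p = 0.0135). It shares 334 exon bases with Emg1 on the other strand of chromosome 6, and Emg1 fell by 0.86 ± 0.15 (limma adjusted p = 0.00448), opposite to Lpcat3. Abca1, which lipidates apolipoprotein A-I, had 252 and 209 with CCl4, against 204 and 144 with oil. The lower CCl4 pool and the higher oil pool were nearly equal, and the rise was 0.42 ± 0.13 (limma adjusted p = 0.0431). The Abca1 call is the least firm of the 6. It was lost without either CCl4 pool on a normal diet, without the 24-week oil pool on a normal diet and without either Western diet oil pool, with changes of 0.25 to 0.43 and adjusted p of 0.0794 to 0.286. It was also lost with no duration term (limma adjusted p = 0.112) and by edgeR (adjusted p = 0.0536). Lpcat3 lost its call without either CCl4 pool or the 24-week oil pool of the normal diet (0.41 to 0.63, adjusted p of 0.0563 to 0.112). Mylip lost it without the 24-week CCl4 or the 24-week oil pool of that diet (0.71 to 0.89, adjusted p of 0.0569 to 0.0795). Without either of those 24-week pools, 3 of the 10 genes were called. Abcg5, Abcg8 and Abcg1 were called whichever library was left out. With no filter on low values 2 of the 10 genes were called, Abcg5 and Abcg1, and with the tumours added to the fit 3, those 2 and Abcg8.

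The receptors themselves gave no call. Nr1h3, the LXR alpha gene of hepatocytes and macrophages, had 103 and 91.4 with CCl4, against 112 and 131 with oil, a difference of -0.32 ± 0.14 (limma adjusted p = 0.118). Its 2 CCl4 pools lay below its 2 oil pools. Without the 12-week oil pool of the normal diet the difference was -0.52 and passed (adjusted p = 0.0290). Nr1h2, the widely expressed LXR beta gene, had 36.2 and 36.5 with CCl4, against 40.2 and 33.2 with oil, and the CCl4 values fell between the oil values. Per kb, Nr1h3 was 3.33 to 5.26 times Nr1h2 in the pools and 2.63 and 3.80 times in the tumours. Scarb1, the receptor that takes cholesterol esters from HDL, had 239 and 205 with CCl4, against 231 and 192 with oil. Pltp, which transfers phospholipids between lipoproteins, had 71.0 and 83.4 with CCl4, against 77.5 and 69.5 with oil. Scarb1 and Pltp overlapped between the groups, with differences of 0.07 ± 0.15 (limma adjusted p = 0.757) and 0.07 ± 0.12 (adjusted p = 0.719).

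**Figure D3:**
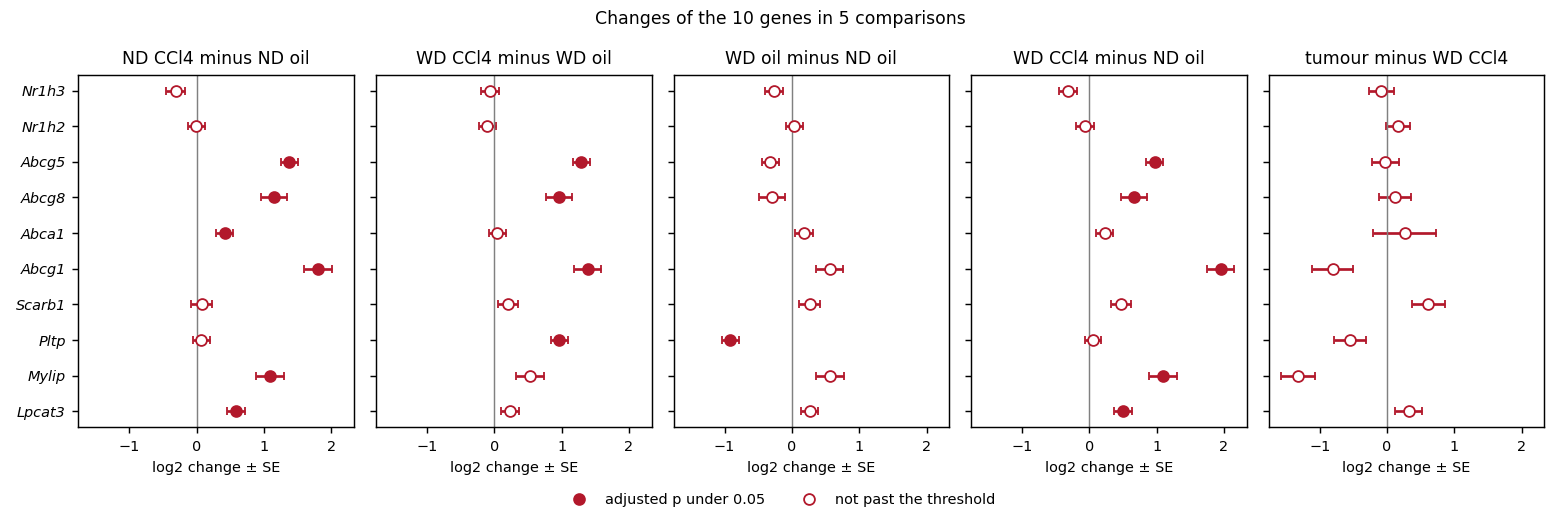
Log2 change ± SE (x axes) of the 10 genes (rows) in 5 comparisons; filled points have a limma adjusted p under 0.05. CCl4 on a normal diet shows 6 filled points to the right of 0, Western diet with oil shows 1, Pltp, to the left, and the tumour comparison shows none.

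Western diet with oil was set against normal diet with oil, the diet without the toxin. Pltp was the only one of the 10 to pass, and it fell. Its values were 39.3 and 37.7 on the Western diet, against 77.5 and 69.5 on the normal diet, a ratio of means of 0.524. The fall was -0.91 ± 0.12 (limma adjusted p = 0.0122), and the 2 Western diet pools stood nearly together, below all 6 other pools. So 0 of 10 rose and 1 fell, where 1.45% of all tested genes rose and 0.546% fell (183 and 69 genes, or 79 and 48 after quantile normalization). The 4 genes with an unadjusted p under 0.05 in limma were Pltp, Abcg5, Abcg1 and Mylip, and edgeR and DESeq2 also called 0 higher. Leaving out any of the 4 pools compared ended the Pltp call, with changes of -1.01 to -0.81 and adjusted p of 0.0541 to 0.190, and so did using no filter or adding the tumours to the fit. Pltp shares 495 exon bases with Ctsa on the other strand of chromosome 2, and Ctsa had 151 and 147 on the Western diet, against 151 and 128 on the normal diet (0.10 ± 0.14, limma adjusted p = 0.757).

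The other 9 genes gave no call on this diet. Abcg1 had 9.78 and 9.53 on the Western diet, against 5.28 and 7.32 on the normal diet (0.56 ± 0.20, limma adjusted p = 0.214), and Mylip had 13.6 and 12.1, against 9.41 and 7.32 (0.57 ± 0.21, adjusted p = 0.211). Neither gene overlapped between the diets. The macrophage sum was 574 and 684 on the Western diet, against 291 and 401 on the normal diet, and 6 of its 12 markers rose (0 or 1 without any of the 4 pools compared). Abcg5 had 60.2 and 66.1 on the Western diet, against 86.7 and 72.3 on the normal diet (-0.32 ± 0.13, limma adjusted p = 0.243). Abcg8 had 81.7 and 81.9, against 137 and 74.1 on the normal diet, so the Western diet values lay between the normal diet values. Abca1, at 199 and 191, also lay within the normal diet range of 144 to 204. The differences of Nr1h3, Scarb1, Lpcat3 and Nr1h2 were -0.26 ± 0.14, 0.26 ± 0.15, 0.26 ± 0.13 and 0.04 ± 0.13 (limma adjusted p of 0.354, 0.401, 0.340 and 0.91).

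Western diet with CCl4, the combined exposure, was compared with normal diet with oil. Abcg5, Abcg8, Abcg1, Mylip and Lpcat3 rose, which is 5 of 10, and 0 fell, where 15.7% of all tested genes rose and 10.2% fell. The median change of the 10 was 0.48, against -0.02 for all tested genes. Abcg5 had 172 and 142 with the combined exposure, against 86.7 and 72.3 on normal diet with oil, and rose by 0.97 ± 0.13 (limma adjusted p = 0.00115). Abcg8 had 171 and 150 with the combined exposure, against 137 and 74.1, and rose by 0.67 ± 0.19 (limma adjusted p = 0.0349). Abcg1 gave the largest change of the 10 again, a rise of 1.95 ± 0.20 (limma adjusted p = 0.000438). It had 26.4 and 27.3 with the combined exposure, against 5.28 and 7.32 on normal diet with oil. The macrophage sum was 1229 and 1314 with the combined exposure, against 291 and 401.

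Mylip had 20.2 and 17.6 with the combined exposure, against 9.41 and 7.32 on normal diet with oil, and rose by 1.10 ± 0.21 (limma adjusted p = 0.00605). Lpcat3 had 144 and 149 with the combined exposure, against 120 and 88.3, and rose by 0.50 ± 0.13 (limma adjusted p = 0.0245). For these 5 genes the 2 groups did not overlap. Scarb1, at 353 and 242 with the combined exposure against 231 and 192, missed the threshold (0.47 ± 0.15, limma adjusted p = 0.0508). It passed in 4 of 8 other settings (a pseudocount of 0.1, quantile normalization, median-ratio factors and DESeq2), with adjusted p over all settings of 0.0107 to 0.278, and without the 24-week pool of the combined exposure (0.68, adjusted p = 0.0241). Abca1 overlapped between the groups (0.23 ± 0.13, adjusted p = 0.222). Pltp, at 77.2 and 75.4 with the combined exposure, stood within the range of normal diet with oil. Nr1h3 had 107 and 87.4, below both normal diet oil pools (-0.32 ± 0.14, limma adjusted p = 0.110), and passed without the 12-week pool of normal diet with oil (-0.52, adjusted p = 0.0279).

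Of these calls, Abcg8 was lost without either pool of the combined exposure, either Western diet oil pool or the 24-week normal diet oil pool (0.27 to 0.73, adjusted p of 0.0591 to 0.230), and with no duration term (adjusted p = 0.0663). Lpcat3 was lost without the 24-week combined pool, either Western diet oil pool or the 24-week normal diet oil pool (0.33 to 0.50, adjusted p of 0.0612 to 0.181). Mylip was lost without the 24-week normal diet oil pool (0.90, adjusted p = 0.0683). Without that pool 2 of the 10 genes were called, and without either Western diet oil pool 3 were. Abcg5 and Abcg1 were called whichever library was left out. They were also the 2 genes called with no filter, and Mylip joined them with the tumours in the fit.

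CCl4 added to the Western diet was compared with that diet and oil. Abcg5, Abcg8, Abcg1 and Pltp rose, 4 of 10, and 0 fell, where 4.29% of all tested genes rose and 2.52% fell. Pltp had 77.2 and 75.4 with CCl4, against 39.3 and 37.7 with oil, a rise of 0.97 ± 0.12 (limma adjusted p = 0.00538), and CCl4 values stood near those of normal diet with oil (77.5 and 69.5). Abcg5 had 172 and 142 with CCl4, against 60.2 and 66.1 with oil (1.29 ± 0.13, limma adjusted p = 0.00177). Abcg8 had 171 and 150 with CCl4, against 81.7 and 81.9 with oil (0.96 ± 0.19, limma adjusted p = 0.0263). Abcg1 had 26.4 and 27.3 with CCl4, against 9.78 and 9.53 with oil (1.39 ± 0.20, limma adjusted p = 0.00989). In each of the 4 genes both CCl4 pools were above both oil pools, and 9 of 12 macrophage markers rose in this comparison (3 without the 12-week oil pool, and 0 without the 24-week oil pool, with no filter or with the tumours in the fit).

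The same comparison gave no call for Mylip (0.53 ± 0.21, limma adjusted p = 0.159), Lpcat3 (0.24 ± 0.13, adjusted p = 0.301) or Abca1 (0.04 ± 0.13, adjusted p = 0.867). Mylip and Lpcat3 did not overlap between the groups, which 2 pools a side can give by chance, whereas Abca1 did. Nr1h3, Nr1h2 and Scarb1 were not called either, with differences of -0.06 ± 0.14, -0.10 ± 0.13 and 0.21 ± 0.15 (limma adjusted p of 0.815, 0.669 and 0.446). The calls rest on few pools. Pltp lost its call without either oil pool of the Western diet (0.933 to 1.003, adjusted p of 0.0640 to 0.159). Abcg1 lost it without the 24-week oil pool (1.16, adjusted p = 0.205). Abcg8 lost it without either oil pool or the 24-week CCl4 pool of this diet (0.77 to 1.16, adjusted p of 0.0994 to 0.205), and with no duration term (adjusted p = 0.0704). Without the 12-week oil pool 2 of the 10 genes were called, and without the 24-week oil pool 1 was. With no filter, or with the tumours in the fit, limma called 0 of the 10.

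Whether diet changed the response to CCl4 was tested by the interaction. It called 0 of 10 genes in limma, where 0.103% of all tested genes were called, with 1 unadjusted p under 0.05, 0 calls by edgeR and 1 by DESeq2. That gene was Pltp, whose response to CCl4 was larger on the Western diet by 0.90 ± 0.17 (limma unadjusted p = 0.000651, adjusted p = 0.142). DESeq2 gave 0.94 and an adjusted p of 0.00759, the lowest among its alternatives, whose highest was 0.9999. Abcg5 rose by 1.29 with CCl4 on the Western diet and by 1.38 on the normal diet, and the difference was -0.08 ± 0.18 (limma adjusted p = 0.920). For Mylip the difference was -0.56 ± 0.29 (adjusted p = 0.620) and for Abca1 -0.37 ± 0.18 (adjusted p = 0.600). Mylip, Lpcat3 and Abca1 were called with CCl4 on the normal diet and not on the Western diet, but the test of the difference called none of them.

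Western diet added to CCl4 was compared with normal diet and CCl4. It called 0 of 10 genes in limma, where 0.0474% of all tested genes were called, with 3 unadjusted p under 0.05 and 0 calls by edgeR and DESeq2. The 3 were Abcg5, Abcg8 and Scarb1. Abcg5 had 172 and 142 on the Western diet, against 211 and 203 on the normal diet (-0.40 ± 0.13, limma adjusted p = 0.561). Abcg8 had 171 and 150 on the Western diet, against 231 and 218 (-0.48 ± 0.19, adjusted p = 0.674). Scarb1 had 353 and 242 on the Western diet, against 239 and 205 (0.40 ± 0.15, adjusted p = 0.660), and in none of the 3 did the groups overlap. Duration, 24 against 12 weeks over all 4 combinations, called 0 of 10 members and 0 of all tested genes (0%) in limma. At an unadjusted p under 0.05 there were 1 member, Abca1 (-0.25 ± 0.09, adjusted p = 0.374), and 1475 genes, and edgeR and DESeq2 called 0 members and 1 and 90 genes.

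The 2 tumours were compared with liver of mice on Western diet with CCl4. Tumours came from single mice and the liver from pools, so tissue and pooling cannot be told apart. In limma 0 of 10 genes were called, where 0.972% of all tested genes were called, with 3 unadjusted p under 0.05 (Mylip, Abcg1 and Scarb1), 0 calls by edgeR and 1 by DESeq2. Mylip had 7.39 and 6.33 in tumours, against 20.2 and 17.6 in liver, from 189 and 163 reads against 526 and 614. Both tumours were below every liver pool but the 24-week pool of normal diet with oil, which at 7.32 lay between them. The difference was -1.32 ± 0.25 (limma adjusted p = 0.0562), and DESeq2 called it (-1.46, adjusted p = 0.000577), where all its alternatives ran from that p to 1. The difference was -1.42 without tumour 1 and -1.23 without tumour 2.

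The values of Abcg5 and Abcg8 in tumours overlapped those of the livers. Abcg5 had 170 and 129 in tumours, against 172 and 142 in liver (-0.02 ± 0.20, limma adjusted p = 0.970), and Abcg8 had 162 and 153, against 171 and 150 in liver (0.12 ± 0.24, adjusted p = 0.852). Abca1 was where the tumours differed most, 126 in tumour 1 and 386 in tumour 2, against 212 and 190 in liver, and the liver values lay between the 2 tumours. Its difference was 0.26 ± 0.47 (limma adjusted p = 0.838). Without tumour 1 it was 1.06 and without tumour 2 it was -0.54, so its direction rests on which tumour is kept. Scarb1 had 352 and 487 in tumours, against 353 and 242 in liver (0.62 ± 0.24, limma adjusted p = 0.251). Abcg1 had 21.2 and 13.0 in tumours, against 26.4 and 27.3 in liver (-0.81 ± 0.30, limma adjusted p = 0.238), and Pltp had 41.2 and 64.8, against 77.2 and 75.4 (-0.55 ± 0.24, adjusted p = 0.299). Without tumour 1 the differences of Abcg1 and Scarb1 were -1.14 and 0.85, and without tumour 2 that of Pltp was -0.87. With 1 tumour left no spread between tumours enters the fit, so a call gained there gives no support for a change. The macrophage sum was 973 and 798 in tumours, against 1229 and 1314 in liver. Of its 12 markers 1 had a positive difference, and the median was -0.91. In limma 1 was called lower, and 9 had an unadjusted p under 0.05. Mpeg1 made up 272 and 360 of the tumour sums, against 209 and 260 in liver.

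The genes around the 10 were described by lists. Of 17 other LXR targets, 12 rose and 1 fell with CCl4 on a normal diet, where 15.3% of all tested genes rose and 10.6% fell. Their median change was 1.01, against 0.00 for all tested genes. With no filter 6 rose and 0 fell, with the tumours in the fit 4 and 0, and without the 12-week CCl4 pool, the 24-week CCl4 pool or the 24-week oil pool of the normal diet 8, 7 and 7 rose and 0 fell. On that comparison the desaturase Scd1 rose by 1.96 ± 0.37, lipoprotein lipase (Lpl) by 1.91 ± 0.23, the ubiquitin ligase Rnf145 by 1.58 ± 0.15 and the macrophage survival protein Cd5l by 1.47 ± 0.29 (limma adjusted p of 0.00699, 0.000924, 0.000338 and 0.00849). Western diet with oil raised 2 of the 17 and lowered 0, where 1.45% of all tested genes rose and 0.546% fell. The 2 were Rnf145 (0.98 ± 0.15) and the carboxylase Acaca (0.88 ± 0.13). The following counts are of the 17 and that diet. It raised 0 with no filter, with the tumours in the fit, or without either Western diet oil pool or the 24-week normal diet oil pool, and 4 without either CCl4 pool of the normal diet. With the combined exposure 10 rose and 1 fell (6 and 0 with the tumours in the fit), led by Lpl at 2.32 ± 0.23, and with CCl4 added to the Western diet 4 rose and 0 fell, led by Lpl at 1.38 ± 0.23, against 0 with no filter, with the tumours in the fit or without the 24-week oil pool of that diet, 1 without its 12-week oil pool and 2 without its 24-week CCl4 pool. With the combined exposure 15.7% of all tested genes rose and 10.2% fell, and with CCl4 added to the Western diet 4.29% and 2.52%. Several of the 17 are also expressed by macrophages, among them Cd5l, Mertk, Lpl and Apoe. In tumours 1 of the 17 fell and 0 rose: Cyp7a1, the rate-limiting enzyme of bile acid synthesis, had 2.31 and 0.776 in tumours, against 93.1 and 86.6 in liver (-5.27 ± 0.59, limma adjusted p = 0.0184). Limma called 0.972% of all tested genes in that comparison. At an unadjusted p under 0.05 there were 6 of the 17, and DESeq2 called 3 higher and 2 lower. The Cyp7a1 call was lost without either pool of the combined exposure or any of the 4 oil pools.

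**Figure D4:**
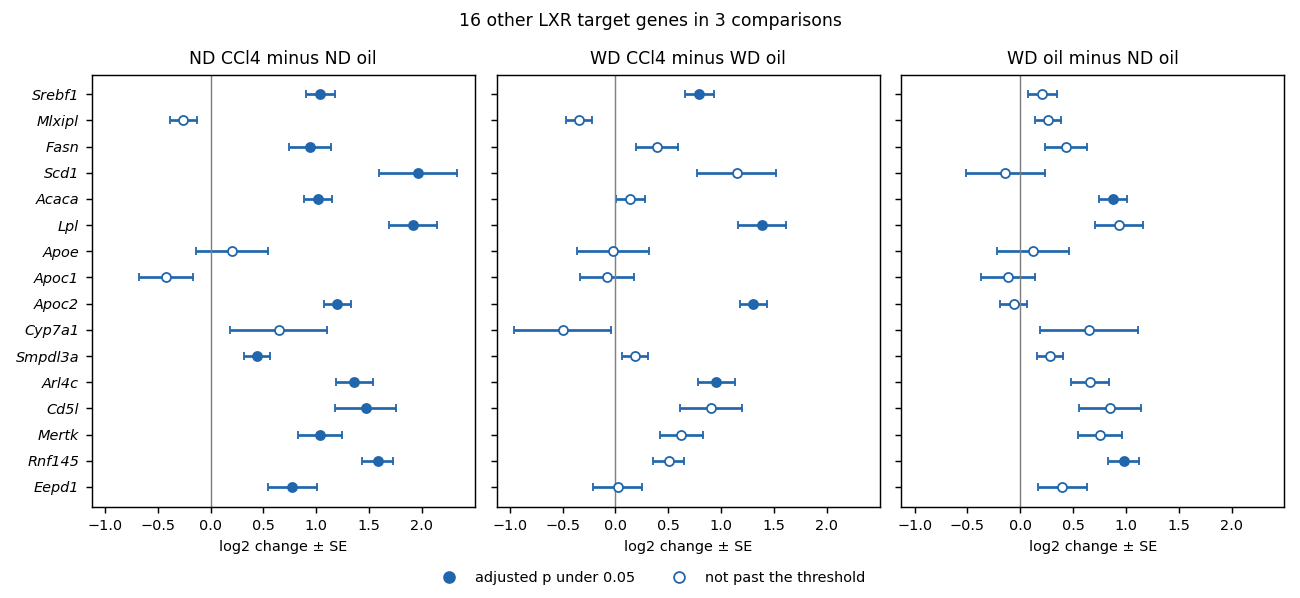
Log2 change ± SE (x axes) of 16 of the 17 other LXR target genes (rows) in 3 comparisons; filled points have a limma adjusted p under 0.05. With CCl4 on a normal diet 12 filled points lie to the right of 0, and with Western diet and oil 2 are filled.

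The partners of the receptors gave few calls. Of 12 RXR and cofactor genes, 0 were called in limma with CCl4 on a normal diet (2 unadjusted p under 0.05, 0 calls by edgeR and DESeq2). Among all tested genes 15.3% rose and 10.6% fell there. Rxra had 497 and 463 with CCl4, against 436 and 393 with oil (0.21 ± 0.11, limma adjusted p = 0.195). With the combined exposure 1 of 12 fell and 0 rose, Ttc39b, whose protein in mice is known to promote LXR degradation: it had 21.5 and 20.3 with the combined exposure, against 36.2 and 31.5 on normal diet with oil (-0.67 ± 0.14, limma adjusted p = 0.00841). The call was lost with the tumours in the fit and without the 24-week pool of normal diet with oil. Among all tested genes 15.7% rose and 10.2% fell with the combined exposure.

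Among lipoprotein receptors that Mylip targets, Lrp8 did not pass the filter. Of the 2 tested, 1 rose and 0 fell with CCl4 on a normal diet, and only 1 had a positive difference. Among all tested genes 15.3% rose and 10.6% fell there. Vldlr, a receptor for triglyceride-rich particles, had 5.33 and 8.46 with CCl4 on a normal diet, against 2.35 and 1.42 with oil, and rose by 1.44 ± 0.28 (limma adjusted p = 0.00741), a call lost without the 24-week CCl4 or oil pool of that diet, with no filter or with the tumours in the fit. Vldlr had 134 and 285 reads with CCl4 on that diet, against 53 and 31 with oil. These are transcript levels, while Mylip acts on the protein.

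Genes of HDL moved in different directions. With CCl4 on a normal diet, 2 of 8 rose and 3 fell, where 15.3% of all tested genes rose and 10.6% fell. Without either CCl4 pool of the normal diet, either Western diet oil pool or the 24-week normal diet oil pool, 2 rose and 1 fell. The same counts came with no filter, with quantile normalization and with no duration term. With the tumours in the fit 2 rose and 0 fell, and by DESeq2 2 rose and 4 fell. The apolipoprotein gene Apoa4 rose by 5.32 ± 0.22 and the phospholipase gene Lipg by 1.72 ± 0.26 (limma adjusted p of 9.33e-06 and 0.00260), while Apom fell by 1.78 and Apoa1, the main HDL protein, by 0.72 on the log2 scale (adjusted p of 0.00138 and 0.0445). Of 5 tested genes that make or clear oxysterols, the LXR ligands, 3 fell and 0 rose: Cyp7b1, an oxysterol hydroxylase, by 3.07, Cyp27a1, a sterol hydroxylase that makes an oxysterol, by 0.64, and Hsd3b7 by 0.58 (adjusted p of 0.000504, 0.00593 and 0.0254). Without the 24-week CCl4 pool of the normal diet 1 of the 5 fell, and with the tumours in the fit 0 did. With no filter all 7 genes of this list entered the fit, and 2 rose and 2 fell. Cyp7b1 had 73.8 and 24.6 with CCl4, against 356 and 379 with oil.

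Sterol handling and sterol synthesis gave calls in different directions. With CCl4 on a normal diet, 5 of 12 handling genes rose and 2 fell, where 15.3% of all tested genes rose and 10.6% fell. The risers included the sterol transporter Gramd1b (1.46 ± 0.24) and Soat1, which esterifies cholesterol (1.30 ± 0.23). Gramd1b had 2.74 and 4.33 with CCl4, against 0.71 and 0.55 with oil, from 69 and 146 reads against 16 and 12. Both of these oil pools were under the filter value of 1, so Gramd1b passed the filter through other libraries, where it was higher. By edgeR 4 of the 12 rose and 1 fell, and with no filter 2 and 1. Without either CCl4 pool of the normal diet or either Western diet oil pool 3 rose and 1 fell, and without the 24-week normal diet oil pool 2 and 1. Of 14 genes of cholesterol synthesis and its regulator SREBP2, 13 fell and 1 rose, against 12 and 0 with no filter and 7 and 0 with the tumours in the fit. Squalene epoxidase (Sqle) had 8.11 and 6.86 with CCl4, against 142 and 151 with oil, a change of -4.12 ± 0.15 (limma adjusted p = 6.47e-06). On the Western diet with oil 0 of the 14 were called in limma, with 3 unadjusted p under 0.05, 0 calls by edgeR and 1 by DESeq2. When CCl4 was added to that diet 13 fell and 0 rose, where 4.29% of all tested genes rose and 2.52% fell. In that comparison limma called 1 of the 14 lower with no filter, 1 with the tumours in the fit and 5 without the 24-week oil pool of that diet, whereas edgeR and DESeq2 each called 13. Of 10 other ABCA and ABCG transporters, CCl4 on a normal diet raised 1, Abcg3 (1.12 ± 0.18), and lowered 2, Abca2 and Abca8a. Among all tested genes 15.3% rose and 10.6% fell in that comparison. In the tumours 0 of these 14 synthesis genes were called in limma, where 0.972% of all tested genes were called. There were 2 unadjusted p under 0.05, 0 calls by edgeR and 1 by DESeq2.

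Likeness between the genes was measured as Pearson's r of log2(value + 1) over the 8 pools. These pools share 4 combinations of diet and treatment, so r also carries the differences between these groups, and it is given as a description. Over the 45 pairs of the 10 genes, r ran from -0.78 (Nr1h3 with Mylip) to 0.96 (Abcg5 with Abcg8). It was above 0.7 in 14 pairs and under 0 in 13. Nr1h3 ran opposite to Mylip, Lpcat3 (-0.75) and Abcg1 (-0.68), which are known LXR targets. With the summed macrophage markers r was 0.97 for Abcg1, 0.91 for Mylip, 0.69 for Lpcat3 and -0.74 for Nr1h3. With the summed hepatocyte markers it was -0.89, -0.79, -0.73 and 0.81 for the same genes. Alb made up most of that sum, so r with it largely follows Alb. For example, Alb was 114851 of 165482 in the 12-week pool of normal diet with oil. In the 24-week pool of Western diet with CCl4 it was 54802 of 88961. In the order macrophage and hepatocyte, r was 0.69 and -0.76 for Abcg5, and 0.55 and -0.67 for Abcg8. It was 0.36 and -0.41 for Abca1, 0.40 and -0.05 for Scarb1, 0.21 and -0.34 for Pltp, and -0.35 and 0.31 for Nr1h2. The part of these cell types in the pairs was not tested. Among 6323 genes at or above the median level, the 5 most like Abcg5 were Elovl5 (0.97), Fabp2 (0.96), Rtfdc1 (0.96), Abcg8 (0.96) and Mgll (0.95). For Abca1 they were Ap1b1 (0.97), Acad11 (0.95), Plekhg6 (0.94), Rnf19a (0.93) and Nfic (0.92), and for Abcg1 they were Slc11a1, Cotl1, Axl, Kctd12 and Ccl6 (each 0.99).

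**Figure D5:**
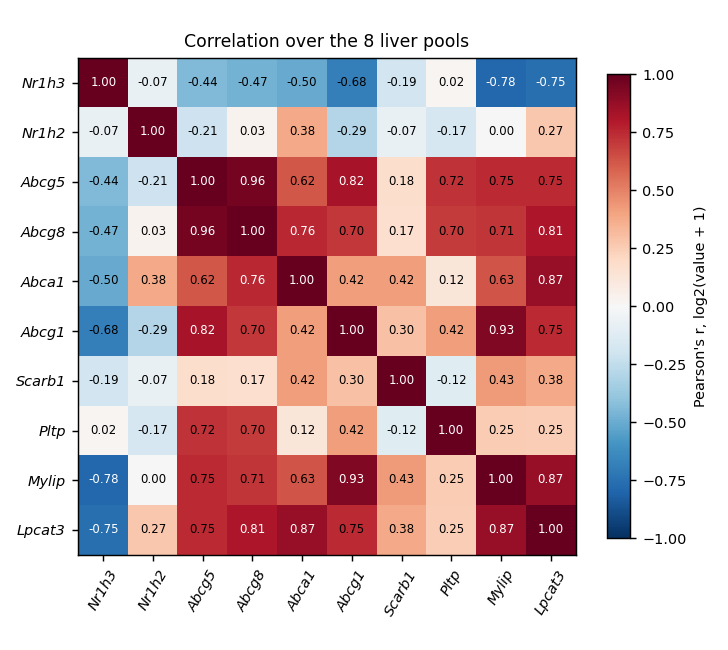
Pearson's r of log2(value + 1) over the 8 liver pools for each pair of the 10 genes (rows and columns); red is positive and blue negative. Abcg5 and Abcg8 form the highest pair at 0.96, and Nr1h3 has negative values with 8 of the other 9 genes, to -0.78 with Mylip.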

How the data were processed

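The authors deposited 1 table of normalised signal for 24062 genes in 10 libraries. Per the labels' protocols, frozen tissue went through an RNeasy extraction, and a TruSeq kit with poly-A selection took 200 ng of RNA per library. STAR and the build mm10 are named in the submitters' processing notes. For versions, read counter, annotation, strand setting and scaling: not given in the sources used here. All deposited values in each library were whole reads times 1 constant, within 0.01 reads, so reads were recovered. Unmapped columns numbered 0.

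Genes at 1 or more in at least 2 libraries were tested (12648, with 6447 genes at 0 in all), on log2(value + 1), two-sided, by lmFit and trended eBayes of limma 3.58.1 (R 4.3.3). The fit had 1 mean per combination and a duration term, on the 8 pools with 3 residual degrees of freedom. For tumours all 10 libraries were fitted, leaving 4. Benjamini-Hochberg adjustment ran over all tested genes. Alternatives were a pseudocount of 0.1, median-ratio size factors, quantile normalization, no filter, no duration term, other libraries in the fit, DESeq2 1.42.0 and edgeR 4.0.16 on recovered reads, and leaving out each library. The fits were also run on simulated counts with 1 fixed spread and no duration effect. That run checked the code and says nothing on how firm the calls above are.

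The 10 genes and the 14 other lists were chosen with earlier results of these data known. Each of the 10 is counted in every comparison, but values are not given for each gene in all of them. Of a list, up to 4 called genes with the largest changes were named. Counts cover whole lists, and some of their genes are not reported here by name or drawn. Among list symbols, 2 were found under another symbol. Coordinates and exon lengths are from GENCODE for GRCm38. Raw reads were not used here.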

Additional observations from a re-analysis of the deposited data

Results flagged for a closer look

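Among the genes of the lists, 2 responded to CCl4 differently on the 2 diets by the tested interaction. Apoa4, an apolipoprotein gene, had 2221 and 3512 normalised reads with CCl4 and 414 and 349 with oil on the Western diet, and 3307 and 5345 with CCl4 and 91.2 and 119 with oil on the normal diet. Its rise was smaller on the Western diet by a difference of -2.45 ± 0.31 (limma adjusted p = 0.0320). The Apoa4 call held in 4 of 8 other settings and with 2 of 8 pools left out, with differences of -2.86 to -2.04 and adjusted p of 1.146e-12 to 0.9999. Sqle, squalene epoxidase of cholesterol synthesis, had 21.4 and 21.3 with CCl4 and 106 and 139 with oil on the Western diet, and 8.11 and 6.86 with CCl4 and 142 and 151 with oil on the normal diet. Its fall was smaller on the Western diet, a difference of 1.67 ± 0.21 (limma adjusted p = 0.0320). The Sqle call held in 5 of 8 other settings and with 2 of 8 pools left out, with differences of 1.46 to 1.89 and adjusted p of 4.064e-09 to 0.9999. Over the whole table the interaction called 13 genes, against 0 with no filter and 0 with the tumours in the fit.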

How the results depend on the processing

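The counts of the 10 genes called were 6 for CCl4 on a normal diet, 5 for the combined exposure, 4 for CCl4 on the Western diet and 1 for that diet with oil. With no filter they were 2, 2, 0 and 0, and with all 10 libraries in 1 fit 3, 3, 0 and 0. The tumour count of 0 became 1 with quantile normalization, with no duration term and by DESeq2 (Mylip each time), and the interaction count of 0 became 1 by DESeq2 (Pltp). Leaving out 1 library gave 3 to 7 calls for CCl4 on a normal diet, 2 to 6 for the combined exposure, 1 to 4 for CCl4 on the Western diet, 0 to 1 for that diet with oil and 0 to 4 for tumours; a pool left alone was taken to vary as the rest do. The other counts stayed within 1.5 times. No called change of the 10 genes turned direction in any setting.

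Genes called over the whole table were 3285 for CCl4 on a normal diet, 252 for the Western diet with oil, 3278 for the combined exposure, 862 for CCl4 on the Western diet, 6 for that diet added to CCl4, 13 in the interaction, 0 for duration and 123 in the tumour comparison. With no filter the first 6 were 1353, 0, 1887, 3, 0 and 0, and with all 10 libraries in 1 fit 437, 4, 796, 6, 1 and 0. Tumours with their own livers alone gave 0. Quantile normalization gave 127 for the Western diet with oil, 476 for CCl4 on it, 8 for the interaction and 217 for tumours, and no duration term gave 121, 203 and 388 for that diet, CCl4 on it and tumours. DESeq2 gave 570, 1319, 67, 132, 90 and 745 for that diet, CCl4 on it, the diet added to CCl4, the interaction, duration and tumours, and edgeR gave 1 for duration. Leaving out 1 library gave 1021 to 3659, 17 to 390, 1214 to 3136, 29 to 891, 2 to 117, 0 to 79, 0 to 1 and 0 to 2394 in the same order of comparisons. The cause was not tested.

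Uncalled log2 differences near 0 changed sign in 17 results of the other settings. With quantile normalization these were Nr1h2 for CCl4 on a normal diet (0.0179), Nr1h3 for CCl4 on the Western diet (0.0616), Nr1h3 and Pltp for the diet added to CCl4 (0.0299 and 0.0213) and Pltp for duration (0.0499). Median-ratio factors gave Nr1h3 0 for the diet added to CCl4 and Pltp 0.0125 for duration. No duration term gave Abcg8 -0.023, and the tumours with their own livers gave Abcg5 0.0541 and Nr1h3 0.0158. By edgeR, Nr1h2 was 0.0024 for CCl4 on a normal diet, Nr1h3 7e-04 and Mylip -0.0111 for the diet added to CCl4, and Pltp 0.0071 for duration. By DESeq2, Nr1h3 was 0.0057 and Mylip -0.0058 for the diet added to CCl4, and Pltp 0.0142 for duration.

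With 1 library left out, differences that changed sign ran as follows. For CCl4 on a normal diet Nr1h2 ran from -0.10 to 0.0908 and Pltp from -0.0886 to 0.22, for the Western diet with oil Abcg8 from -0.69 to 0.0947 and Nr1h2 from -0.0629 to 0.14, and for the combined exposure Nr1h2 from -0.16 to 0.0294 and Pltp from -0.0467 to 0.16. For CCl4 on the Western diet Abca1 ran from -0.0793 to 0.17, Scarb1 from -0.0232 to 0.43 and Nr1h3 from -0.20 to 0.0733. For the diet added to CCl4 Abcg1 ran from -0.18 to 0.47, Nr1h3 from -0.14 to 0.13, Mylip from -0.36 to 0.39, Nr1h2 from -0.16 to 0.0375, Lpcat3 from -0.24 to 0.0635 and Pltp from -0.17 to 0.14. For the interaction Nr1h2 ran from -0.20 to 0.0031, Scarb1 from -0.0953 to 0.36, Abcg5 from -0.24 to 0.0826 and Abcg8 from -0.57 to 0.21. For duration Mylip ran from -0.22 to 0.0596 and Pltp from -0.0814 to 0.0472, and for tumours Abcg5 from -0.22 to 0.17, Nr1h3 from -0.26 to 0.041 and Abca1 from -0.54 to 1.06. Depth limits Abcg1 and Mylip most, which had 119 to 1080 and 160 to 763 reads in the pools.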
